A study of Mus musculus with 2 samples.

Results

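Collagens are trimers of chains that wind into a helix, and each chain has its own gene. The genes described here are those whose symbol is Col, a type number, the letter a and a chain number, which 42 of the 26082 genes in the deposited tables met. By type number they fell into 9 fibrillar chains (types I, II, III, V and XI), 8 network chains (types IV and VIII), 6 chains of type VI and 19 chains of the remaining types. The group names stand for the listed types alone and not for every collagen of that kind. The cells were primary FAPs, progenitors of mouse skeletal muscle that can become adipocytes or matrix-producing cells, of wild-type genotype by the labels. By the study's methods they were sorted from hind limb muscle of C57BL/6 mice, and whether cells of several mice were pooled is not given in the sources used here. One culture was given a plasmid that overexpresses TGFBR3 and the other the vector alone. Both cultures were put under adipogenic differentiation, in DMEM with 20% FBS, 10 μg/ml insulin, 0.25 μM dexamethasone and 0.5 mM IBMX. Each condition was sequenced as 1 library, so nothing below could be checked against replicates or tested.

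Fibrillar collagens assemble into the banded fibrils that bear tension in connective tissue. Types I and III make up most of the fibril in muscle connective tissue, and types V and XI are minor chains that help to start fibrils and limit their width. Type IV builds the sheet of the basement membrane, and type VI forms beaded filaments between that membrane and the surrounding matrix. Fibril-associated types such as XII, XIV and XVI sit on the surface of fibrils, whereas types XV and XVIII are proteoglycans of basement membrane zones. FAPs and the fibroblasts derived from them are the main source of interstitial collagen in skeletal muscle.

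The library labelled TGFBR3 OE held 62321027 counts and the library labelled control 83779203. Tgfbr3 (ENSMUSG00000029287, chromosome 5) stood at an FPKM of 36.9 and 35.1 in these libraries, from 16372 and 21245 counts, a log2 ratio of 0.07 (0.04 to 0.10). FPKM is a count scaled by the length of the gene and the size of the library. Pairs of values are given as TGFBR3 OE, then control. The log2 ratio is that of (FPKM + 1), TGFBR3 OE over control, unless stated otherwise, and the brackets after it hold its 95% interval of counting error. The median log2 ratio of 10626 genes at or above an FPKM of 1 in each library was 0.13, so Tgfbr3 itself was not above the median gene, and the libraries are called by what their labels say. FAP genes were present, with FPKM levels of 30.5 and 32.6 for Pdgfra, 1013 and 706 for Ly6a and 88.9 and 94.3 for Pdgfrb, although Lum, Dpp4 and Pi16 of the same list lay under an FPKM of 0.3 in both libraries. The summed FPKM of 6 macrophage and blood genes was 3.40 and 2.51, that of 6 endothelial genes 2.40 and 2.03, that of 5 muscle genes 1.65 and 1.30, that of 4 pericyte genes 2.53 and 2.98 and that of 3 Schwann cell genes 2.02 and 3.80. Ptprc had 0 and 4 counts, Pecam1 24 and 8, and Adgre1 and Tyrobp had none in either library. The summed FPKM of 6 tendon and cartilage genes was 9.82 and 21.0, of which Comp made up 3.04 and 12.6 and Sox9 3.84 and 4.34, while Acan (4 and 0 counts) and Tnmd (4 and 19 counts) were near absent. The summed FPKM of 7 adipocyte genes was 57.3 and 94.0. Of these, 5 were lower in the library labelled TGFBR3 OE, against 36.7% of 11213 genes averaging an FPKM of 1 or more. The lower ones were Cfd (log2 ratio −1.29), Adipoq (−1.07), Cebpa (−0.55), Plin1 (−0.47) and Fabp4 (−0.14), and the higher ones Pparg (0.29) and Lpl (0.16). The sum was moved most by Cfd, with FPKM levels of 15.3 and 39.0, and Adipoq, with 5.69 and 13.0. Myod1, Pax7 and Sox10 were not analysed here. The part of these marker lists in the collagen values was not tested. In RNA of whole cultures, fewer cells that make collagen and less collagen RNA per cell cannot be told apart.

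Collagen RNA was less abundant in the library labelled TGFBR3 OE. The 42 chains held 906471 of the counts in that library, or 1.45% (exact 95% CI 1.45 to 1.46), and 2002193 in the library labelled control, or 2.39% (2.39 to 2.39). Their summed FPKM was 1567 against 2603, which was 1.66-fold higher in the library labelled control. By group, the summed FPKM was 1112 against 1863 for fibrillar chains, 326 against 498 for network chains, 50.5 against 123 for type VI and 78.0 against 119 for the remaining types. Type VI therefore had the largest difference of the 4 groups, at 2.44-fold, while the other groups lay between 1.53-fold and 1.67-fold. All intervals cover counting error only, and reads that are copies of one molecule would make them too narrow.

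Of the 42 chains, 19 had a mean FPKM of at least 1 over both libraries, and these are the members for which a level can be read well. Among the 19, 17 were lower and 2 were higher in the library labelled TGFBR3 OE. For comparison, 36.7% of 11213 genes passing the same filter were lower and 63.1% were higher. At least 2-fold lower were 6 chains, Col14a1, Col5a3, Col6a1, Col6a2, Col16a1 and Col3a1, against 1.03% of all genes passing the filter. Each of the 6 also had its whole counting interval past that threshold, against 0.687% of genes. No chain was at least 2-fold higher, against 3.14% of genes. The counting interval lay wholly below 0 for 17 chains, against 29.8% of genes, and wholly above 0 for 2, against 55.1%. At least 1.5-fold lower were 12 chains, against 4.91% of genes, and after centring on the median gene 8 chains were at least 2-fold lower, against 1.63%. The median log2 ratio of the 19 chains was −0.73, and that of all genes passing the filter was 0.14. Col14a1 passed the filter through the library labelled control alone, since its FPKM was under 1 in the other. Over all 42 chains, including those with hardly any reads, the median was −0.07. There, 24 were lower, against 32.3% of all 26082 genes, and 10 higher, against 54.7%. The same 6 were at least 2-fold lower, against 0.475% of all genes, and 0 were 2-fold higher, against 1.41%, on the scale with the added 1. High expression went with lower ratios here. Of 475 genes whose mean FPKM reached 100, 68.6% were lower, with a median of −0.20, and all 7 collagen chains among them were lower, with a median of −0.73. At least 2-fold lower were 1 of these 7, Col3a1, and 2.11% of the 475.

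**Figure D1:**
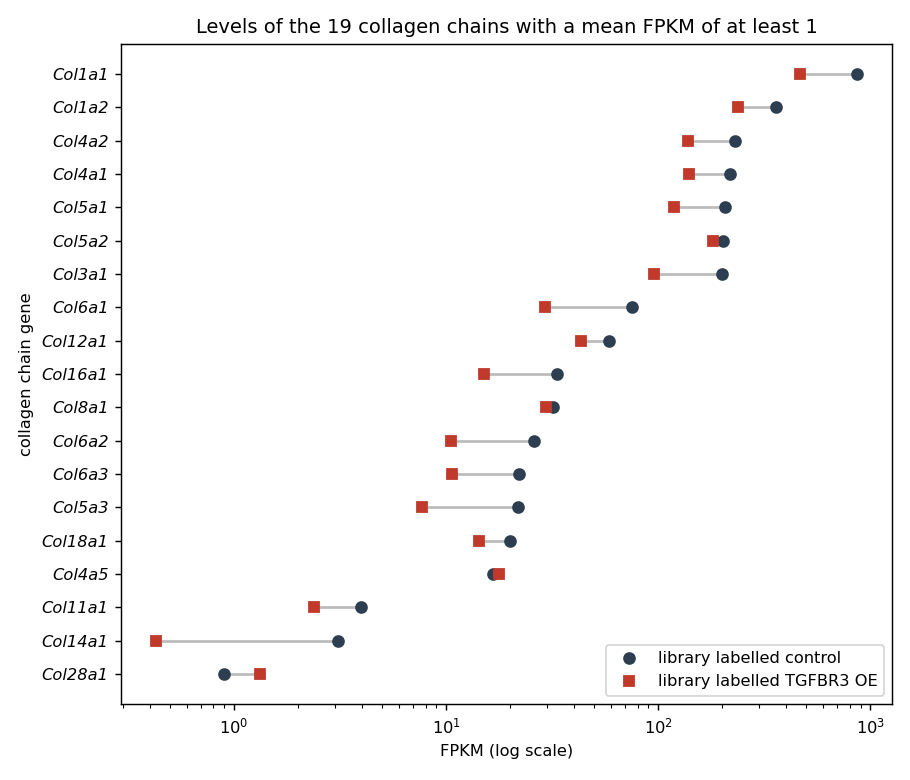
FPKM of the 19 collagen chains with a mean FPKM of at least 1, on a log axis, in the library labelled control (circles) and the library labelled TGFBR3 OE (squares), joined by a line per chain. Squares lie left of circles for every chain but Col4a5 and Col28a1, and levels span from 0.43 (Col14a1) to 870.0 (Col1a1).

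The stretches in front of the transcription start are shown for 5 chains picked after their values were seen, namely both type VI chains with a single listed start, the lowest fibrillar chain, Col3a1 and Col1a2. Col1a1, Col5a2, Col12a1 and Col14a1 had none listed. Each is the 250 bases before the RefSeq start on GRCm38.p6, written 5′ to 3′ on the strand of the gene, with capitals for any of the 4 short motifs named after the sequences, on either strand.
Col6a1, chr10:76726045-76726294, minus strand: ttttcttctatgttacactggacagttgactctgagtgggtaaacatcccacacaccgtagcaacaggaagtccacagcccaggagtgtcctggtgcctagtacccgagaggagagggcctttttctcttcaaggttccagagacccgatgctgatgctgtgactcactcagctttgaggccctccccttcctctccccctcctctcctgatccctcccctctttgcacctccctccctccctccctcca
Col6a3, chr1:90843972-90844221, minus strand: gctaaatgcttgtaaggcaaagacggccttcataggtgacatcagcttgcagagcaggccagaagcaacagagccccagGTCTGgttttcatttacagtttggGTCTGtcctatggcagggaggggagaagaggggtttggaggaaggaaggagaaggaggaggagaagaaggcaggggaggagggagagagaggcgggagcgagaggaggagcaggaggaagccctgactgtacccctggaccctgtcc
Col5a3, chr9:20815068-20815317, minus strand: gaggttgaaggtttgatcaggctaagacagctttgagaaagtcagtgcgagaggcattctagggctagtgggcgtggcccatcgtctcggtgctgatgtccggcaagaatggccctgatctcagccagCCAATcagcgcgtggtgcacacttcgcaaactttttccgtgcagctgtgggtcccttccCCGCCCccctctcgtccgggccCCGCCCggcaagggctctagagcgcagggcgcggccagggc
Col3a1, chr1:45311288-45311537, plus strand: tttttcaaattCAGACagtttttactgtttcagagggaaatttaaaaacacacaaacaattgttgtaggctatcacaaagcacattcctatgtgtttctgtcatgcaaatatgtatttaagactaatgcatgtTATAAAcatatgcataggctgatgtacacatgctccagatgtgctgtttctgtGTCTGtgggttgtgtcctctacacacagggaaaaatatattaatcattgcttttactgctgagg
Col1a2, chr6:4505368-4505617, plus strand: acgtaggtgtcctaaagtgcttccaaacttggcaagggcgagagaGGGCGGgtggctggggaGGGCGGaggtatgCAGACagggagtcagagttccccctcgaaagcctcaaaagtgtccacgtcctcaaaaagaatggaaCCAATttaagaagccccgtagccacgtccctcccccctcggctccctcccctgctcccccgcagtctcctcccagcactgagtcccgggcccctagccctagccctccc
CCAAT, which reads ATTGG on the other strand, is the core that the factor NF-Y binds. TATAAA, which reads TTTATA, is the TATA box. GGGCGG, which reads CCGCCC, is the GC box of Sp1. CAGAC, which reads GTCTG, is a core that SMAD proteins can bind. No motif contains another. None of these letters occurred in the Col6a1 stretch, and Col6a3 held only GTCTG, at 171 and 147 bases before the start. Col5a3 held CCAAT at 122 bases and CCGCCC at 63 and 41 bases before the start. Col1a2 held CCAAT at 109 bases, CAGAC at 175 bases and GGGCGG at 205 and 188 bases before the start. Col3a1, with a GC content of 35.2% in this stretch, was the chain with TATAAA, at 117 bases before the start, and it held CAGAC and GTCTG at 239 and 64 bases. Of the 19 chains, 15 had a listed stretch. CCAAT occurred in at least one stretch of 8 of these 15, against 37.5% of 27025 genes with a stretch listed. GGGCGG occurred in 10, against 35.4% of genes, the CAGAC motif in 10, against 45.8%, and TATAAA in 1, against 14.3%. The 27025 genes were not filtered by level. Of all 33 chains with a listed stretch, CCAAT occurred in 12, GGGCGG in 21, the CAGAC motif in 16 and TATAAA in 4. A match of letters is a description and does not show that a factor binds.

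Among the fibrillar chains, 7 of 9 passed the filter. All 7 were lower in the library labelled TGFBR3 OE, against 36.7% of all genes passing the filter. The median log2 ratio of the 7 was −0.79. Positions are those of mm10. Col1a1 (ENSMUSG00000001506, chromosome 11, 94936224 to 94953042), the main chain of type I, had the highest FPKM of the collagen chains. It stood at an FPKM of 467 against 870.0, from 208125 and 527517 counts, a log2 ratio of −0.89 (−0.90 to −0.89). By FPKM it ranked 80th and 32nd among all genes. Its partner Col1a2 (ENSMUSG00000029661, chromosome 6, 4504814 to 4541544) had FPKM levels of 239 and 359 and a log2 ratio of −0.59 (−0.59 to −0.58), a smaller difference than that of Col1a1. Col3a1 (ENSMUSG00000026043, chromosome 1, 45311538 to 45349706), whose chain forms type III homotrimers, had FPKM levels of 95.8 and 199 and a log2 ratio of −1.05 (−1.06 to −1.04), which is just past 2-fold.

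The chains of type V, which nucleates fibrils, differed from each other. Col5a3 (ENSMUSG00000004098, chromosome 9, 20770050 to 20815067), a chain of restricted expression, had FPKM levels of 7.70 and 21.9, from 3560 and 13770 counts, and the lowest ratio of the fibrillar chains, −1.40 (−1.44 to −1.35). Col5a1 (ENSMUSG00000026837, chromosome 2, 27886425 to 28039514) stood at 118 and 206, with a log2 ratio of −0.79 (−0.80 to −0.78). Col5a2 (ENSMUSG00000026042, chromosome 1, 45374321 to 45503282) stood at 181 and 202, and its log2 ratio of −0.16 (−0.17 to −0.15) was the nearest to 0 of the fibrillar chains. The order of the type V chains was thus Col5a3 lowest and Col5a2 highest, with intervals that did not overlap. Col11a1, a minor fibril chain best known from cartilage, was low, with FPKM levels of 2.39 and 3.98 and a log2 ratio of −0.55 (−0.61 to −0.50). Col2a1 and Col11a2, also cartilage chains, lay under the filter.

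Of the 6 type VI chains, the 3 that form its common trimer were expressed. All 3 were lower, against 36.7% of all genes passing the filter, and their median log2 ratio was −1.22. Col6a1 (ENSMUSG00000001119, chromosome 10, 76708792 to 76726168) had FPKM levels of 29.2 and 75.2, from 8682 and 30428 counts, and a log2 ratio of −1.33 (−1.37 to −1.30). Col6a2 (ENSMUSG00000020241, chromosome 10, 76595762 to 76623630) had FPKM levels of 10.5 and 25.9, from 5947 and 19902 counts, and a log2 ratio of −1.22 (−1.26 to −1.18). Col6a3 (ENSMUSG00000048126, chromosome 1, 90765923 to 90843971), the long chain of the trimer, had FPKM levels of 10.7 and 22.1, from 8669 and 24460 counts, and a log2 ratio of −0.99 (−1.02 to −0.95). The interval of Col6a3 spans the 2-fold threshold on the scale with the added 1, so that this chain could not be placed on either side of it there. Without a pseudocount its interval, from −1.09 to −1.02, lay wholly past the threshold. With a pseudocount of 0.1 in place of 1, with none, or from CPM, Col6a3 was at least 2-fold lower. The other type VI chains, Col6a4, Col6a5 and Col6a6, had at most 37 counts in either library.

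Among the network chains, 4 of 8 passed the filter and 3 of them were lower, against 36.7% of all genes passing it. None of the 4 reached 2-fold, and their median log2 ratio was −0.38. Col4a1 (ENSMUSG00000031502, chromosome 8, 11198423 to 11312826) and Col4a2 (ENSMUSG00000031503, chromosome 8, 11312805 to 11449287) encode the trimer found in nearly all basement membranes. Col4a1 had FPKM levels of 140 and 218 and a log2 ratio of −0.64 (−0.65 to −0.63), and Col4a2 had 138 and 230 and a log2 ratio of −0.73 (−0.74 to −0.72). Col4a5 (ENSMUSG00000031274, chromosome X, 141475385 to 141689234), a chain of more specialized basement membranes, was close to level, with FPKM levels of 17.7 and 16.6 from 8064 and 10306 counts. Its log2 ratio was 0.09 (0.05 to 0.13), and it turned to −0.040 after centring on the median gene. Col8a1, a chain of the short network-forming type VIII, was likewise nearly level, at 29.5 and 32.0, with a log2 ratio of −0.11 (−0.14 to −0.09).

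Of the remaining 19 chains, 5 passed the filter and 4 of these were lower, against 36.7% of all genes passing it. The median log2 ratio of the 5 was −0.46. Col14a1 (ENSMUSG00000022371, chromosome 15, 55307750 to 55520803), a fibril-associated collagen, had the lowest ratio of all chains. It had 205 counts in the library labelled TGFBR3 OE and 1996 in the library labelled control, and FPKM levels of 0.43 and 3.08. Its log2 ratio was −1.51 (−1.58 to −1.44), and without a pseudocount it was −2.84 (−3.05 to −2.63), a 7.15-fold difference. Col16a1 (ENSMUSG00000040690, chromosome 4, 130047840 to 130099283), also fibril-associated, had FPKM levels of 15.0 and 33.3 and a log2 ratio of −1.10 (−1.14 to −1.06). With the trend over GC content described below removed, Col16a1 stood at −0.84 and was no longer 2-fold lower. Col12a1 (ENSMUSG00000032332, chromosome 9, 79598991 to 79718831), the most abundant fibril-associated chain, stood at 43.2 and 58.9, with a log2 ratio of −0.44 (−0.45 to −0.42). Col18a1, whose C-terminal end is the source of endostatin, stood at 14.2 and 20.0, with a log2 ratio of −0.46 (−0.50 to −0.42). Col28a1 was the chain with the highest ratio of those passing the filter, at 1.32 and 0.90 from 440 and 407 counts, a log2 ratio of 0.29 (0.19 to 0.39). It passed the filter through the library labelled TGFBR3 OE alone.

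**Figure D2:**
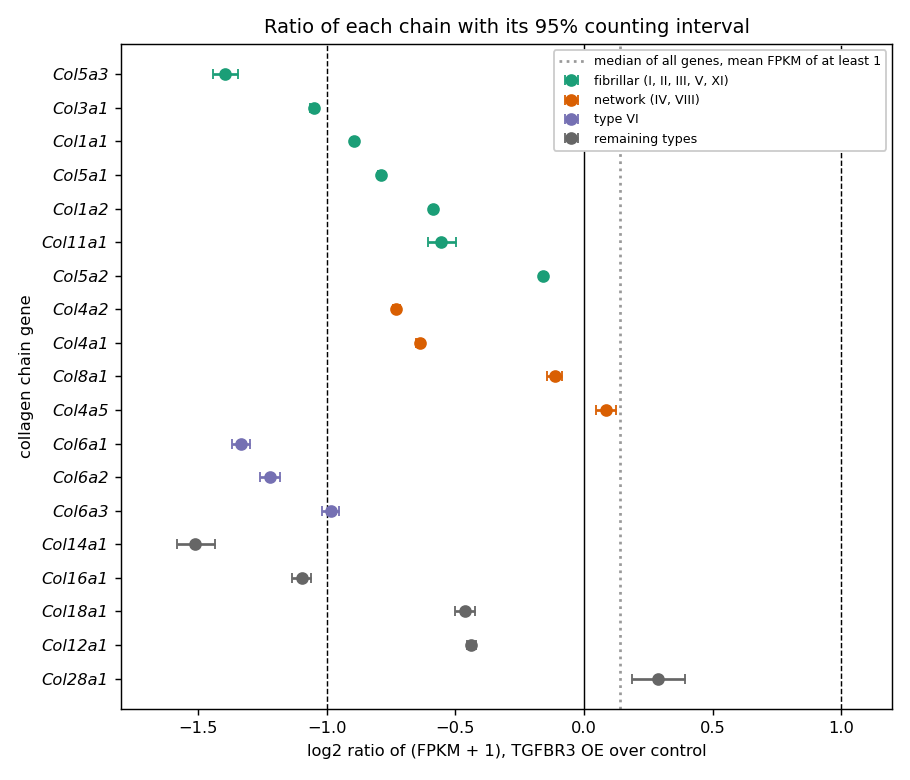
Log2 ratio of (FPKM + 1), TGFBR3 OE over control, for the 19 chains, with bars for the 95% interval of counting error, dashed lines at 2-fold and a dotted line at the median of all genes passing the filter (0.14). The points of 17 chains lie left of 0, and Col28a1 (0.29) is the chain whose interval lies right of the dotted line.

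The other 23 chains had a mean FPKM under 1. Of these, 17 had more than 3 counts in both libraries, and for them the log2 ratio of FPKM without a pseudocount is given. The counting interval lay wholly below 0 for 4 chains, against 12.1% of 6783 genes at this level, wholly above 0 for 6 chains, against 36.6%, and included 0 for 7, against 51.3%. Set against the median gene, which stood at 0.15 on this scale, 5 chains lay wholly below it, against 15.5% of genes, and 5 wholly above it, against 31.1%. Col8a2, the partner of Col8a1, had 91 and 571 counts and a log2 ratio of −2.20 (−2.54 to −1.88). Col15a1, the basement membrane relative of Col18a1, had 21 and 123 counts and a ratio of −2.10 (−2.85 to −1.43). Col24a1 and Col23a1 were the other 2 lower chains, at −0.73 and −0.58. Among the higher chains, Col20a1, a fibril-associated collagen, had 377 and 153 counts and a log2 ratio of 1.75 (1.47 to 2.03). Col11a2 had 257 and 144 counts, with a ratio of 1.28 (0.98 to 1.59), and Col9a3 had 149 and 93 counts, with a ratio of 1.13 (0.74 to 1.52). Col6a4 (0.95), Col27a1 (0.78) and Col4a6 (0.34) were higher as well, and the interval of Col4a6, from 0.01 to 0.66, includes that of the median gene. Col9a3 overlaps exons of Tcfl5 on the other strand by 234 bases and has 6.76% of its 31-base words in common with other transcripts. Of the chains best known from cartilage, Col2a1 had 49 and 61 counts and an interval from −0.44 to 0.70. In the same set, Col9a3 and Col11a2 were higher, Col10a1 was close to level and Col11a1, described above, was lower.

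The intervals of 7 chains included 0. Col7a1, of anchoring fibrils, had 228 and 311 counts and a ratio of −0.00 (−0.26 to 0.25). Col10a1, a network-forming chain of growth plate cartilage counted here among the remaining types, had 165 and 227 counts. Its ratio was −0.01 (−0.31 to 0.28), so that both chains were close to level. Col2a1, Col4a3, Col4a4, Col17a1 and Col26a1 had at most 61 counts in either library, and at this depth a difference was not detected. The last 6 chains had at most 3 counts in a library. Col22a1 had 0 and 15 counts, so that it was at least 3.67-fold lower in the library labelled TGFBR3 OE, and Col9a2 had 8 and 0 counts, at least 3.63-fold higher, with a count of 0 set to a floor of 3 per library. Col6a6 and Col25a1 had 0 and 4 counts each, which gives no fold, and Col6a5 and Col19a1 had no count in either library.

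**Figure D3:**
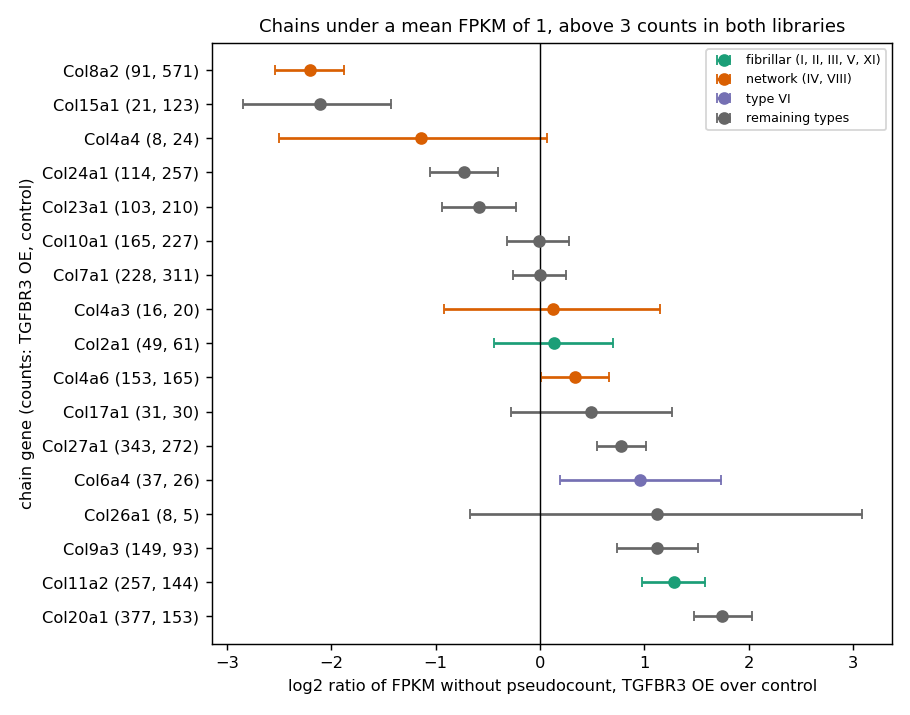
Log2 ratio of FPKM without a pseudocount for the 17 chains with a mean FPKM under 1 and more than 3 counts in both libraries, with bars for the 95% interval of counting error and the counts of both libraries beside each name. Col8a2 (−2.20) and Col15a1 (−2.10) stand at the low end and Col20a1 (1.75) at the high end.

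Chains that share a trimer did not keep the same proportions between the libraries. FPKM here went with the length of all exons of a gene together, which can far exceed that of its longest transcript. For Col1a2 these lengths were 12426 and 5348 bases. The level of a chain over another within a library depends on the length used, whereas the difference between the libraries does not. The FPKM of Col1a1 over that of Col1a2 was 1.956 in the library labelled TGFBR3 OE and 2.42 in the library labelled control, a log2 difference of −0.31 (95% CI −0.32 to −0.30). That of Col5a1 over Col5a2 was 0.654 and 1.02, a log2 difference of −0.64 (95% CI −0.65 to −0.62). Col4a1 over Col4a2 was 1.01 and 0.949, a log2 difference of 0.09 (95% CI 0.07 to 0.11), so that their proportion differed little between the libraries. Col6a1 over Col6a2 was 2.77 and 2.91, a log2 difference of −0.07 (95% CI −0.12 to −0.01). Col6a1 over Col6a3 differed more, at 2.74 and 3.40, or −0.31 (95% CI −0.36 to −0.26). Col8a1 over Col8a2 had the largest difference of all ratios computed, at 98.4 and 23.2, or 2.09 (95% CI 1.77 to 2.41). It rests on 91 and 571 counts of Col8a2, which lay under the filter. Between types, Col5a2 over Col3a1 was 1.89 and 1.01, a log2 difference of 0.90 (95% CI 0.88 to 0.92), which was the largest of the comparisons between abundant fibrillar chains. Across 16 such ratios computed, Col11a1 over Col5a1 was the one whose interval included 0, at 0.06 (95% CI −0.01 to 0.14). These differences move with the trends over base composition and length described further on. On the (FPKM + 1) scale with the GC trend removed, Col4a1 against Col4a2 turned to −0.09 and Col11a1 against Col5a1 to −0.05. There, Col5a1 against Col5a2 stood at −0.42 and Col5a3 against Col5a1 at −0.42. From counts, with no pseudocount, Col5a3 over Col5a1 was −0.71 (95% CI −0.77 to −0.66). The added 1 separates these scales as well as the trend, so the distance between them is not that of the trend alone. With the length trend removed, Col6a1 against Col6a2 turned to 0.07.

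Several chains are neighbors in the genome. Col4a1 and Col4a2 lie head to head on chromosome 8, with annotated starts that overlap by 22 bases, and their log2 ratios were −0.64 and −0.73. Col4a5 and Col4a6 lie head to head on chromosome X, 1308 bases apart, and stood at 0.09 and 0.07, of which the latter came from 153 and 165 counts. Without a pseudocount Col4a5 stood at 0.09 and Col4a6 at 0.34. Col6a1 and Col6a2, on the same strand of chromosome 10 and 85161 bases apart, stood at −1.33 and −1.22. Col3a1 and Col5a2 lie tail to tail on chromosome 1, 24614 bases apart, and their ratios differed, at −1.05 and −0.16. Of these 4 pairs, Col3a1 and Col5a2 were the furthest apart in ratio.

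Base composition went with the ratio, over all genes and over the chains. Collagen genes code for repeats of glycine and proline, whose codons are rich in G and C. The GC content of the 19 chains ranged from 46.8% to 61.6%, with 6 chains below the median of all genes, and the median GC content of the longest transcript was 55.2% for the 19 chains against 50.3% for all genes passing the filter. Over 11207 of those genes, the median log2 ratio ran from 0.42 in the lowest of 20 bins of GC content to −0.26 in the highest, and Spearman's rho was −0.46. Over the 19 chains rho was −0.51, as a description of points from the same pair of libraries. With the median of each GC bin subtracted, 18 of the 19 chains were below 0, against 50.0% of all genes, and the median was −0.71. At least 2-fold lower on that scale were 5 chains, against 1.22% of genes. Col14a1 (−1.65), Col6a1 (−1.25), Col6a2 (−1.18), Col5a3 (−1.13) and Col3a1 (−1.10) stayed past the threshold, and Col6a3 was at −0.98. The chains at the high end of GC content moved up, among them Col18a1, from −0.46 to −0.20, and those at the low end moved down, among them Col8a1, from −0.11 to −0.39. The median exon length of the chains was 7464 bases against 3981 for all genes, and longer genes tended to higher ratios, with a rho of 0.19 over 11207 genes. With the trend over length removed, 9 chains were at least 2-fold lower, against 1.29% of genes, with Col1a1 (−1.09), Col5a1 (−1.06) and Col6a3 (−1.32) added. Transcripts of the 19 chains had at most 2.21% of their 31-base words in common with those of other genes, the highest share being in Col5a1.

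**Figure D4:**
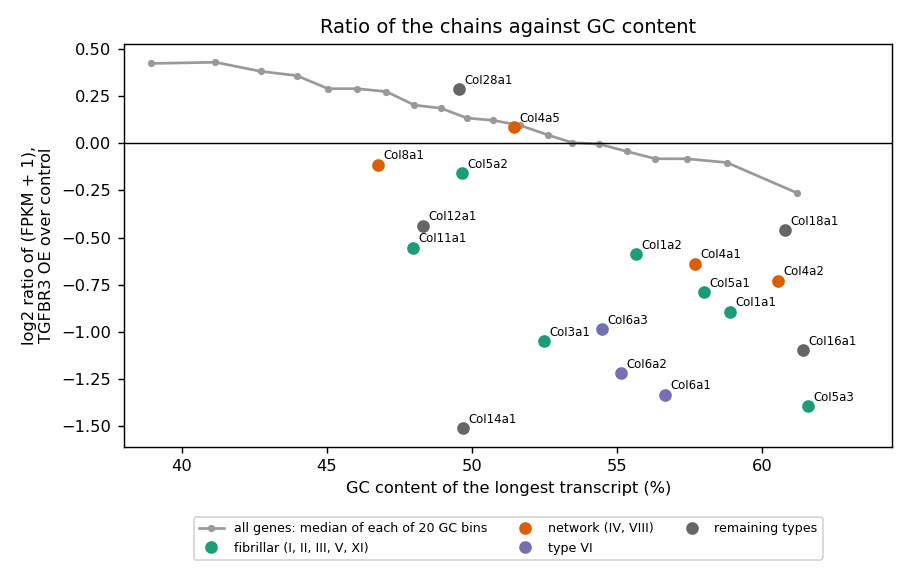
Log2 ratio of (FPKM + 1), TGFBR3 OE over control, against the GC content of the longest transcript in percent, for the 19 named chains by group, with a grey line through the median of all genes in 20 bins of GC content. The line runs from 0.42 to −0.26, and all chains lie below it but Col28a1, which is above, and Col4a5, which is on it.

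By their medians, the genes that fold, modify and cross-link procollagen differed less than the chains. In the endoplasmic reticulum, prolyl and lysyl hydroxylases and chaperones act on the chains before the helix closes. Of 18 such genes, 16 passed the filter, 13 were lower and 3 higher, against 36.7% and 63.1% of all genes passing the filter. No gene reached 2-fold, and the median log2 ratio was −0.37. P4hb, the shared subunit of prolyl 4-hydroxylase, had FPKM levels of 553 and 798 and a log2 ratio of −0.53 (−0.54 to −0.52), and P4ha3, a catalytic subunit, had 10.3 and 15.99 and a ratio of −0.59. The lowest ratios of the list were −0.80 for P3h4, −0.71 for P3h3 and −0.61 for Crtap, which belong to or act with the prolyl 3-hydroxylases, while P3h1 of that family stood at −0.33 and P3h2, under the filter, at 0.28. Serpinh1, the collagen chaperone HSP47, stood at 521 and 633, with a ratio of −0.28, and the chaperone Fkbp10 at −0.42. The 3 genes with higher values, named after they were seen, were Plod2 (0.45), P4ha1 (0.39) and Plod3 (0.07). Once the GC trend was removed, Plod2 and P4ha1 stood at 0.07 and 0.10 and Plod3 at 0.15, and the median of the list was −0.41.

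Export of procollagen was represented by 7 genes, with a median log2 ratio of −0.02, among them Mia2 (0.33) and Sec24d (−0.26). Of 7 genes of propeptide removal, 5 passed the filter and all 5 were lower, against 36.7% of all genes, with a median of −0.46. Pcolce2, an enhancer of that step, had FPKM levels of 0.76 and 1.93 and a ratio of −0.74, having passed the filter through the library labelled control alone, and the N-propeptidase gene Adamts2 had 20.8 and 30.4 and a ratio of −0.53. The lysyl oxidases, which start the cross-links of fibrils, had a median of −0.29 over 5 genes. Lox was among the most abundant RNAs measured here, at 869 and 1140, with a ratio of −0.39 (−0.40 to −0.39), and Loxl4 was the lysyl oxidase with a higher value, at 0.36. Once the GC trend was removed, Lox stood at −0.75, Loxl2 at −0.41, Loxl3 at −0.04, Loxl1 at −0.02 and Loxl4 at 0.44. In all, 33 of 37 procollagen processing genes passed the filter, 26 of them were lower and 7 higher, against 36.7% and 63.1% of all genes passing the filter, and none was 2-fold lower, against 1.03%. Their median was −0.32. With the GC trend removed it was −0.38, against −0.71 for the chains.

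Of 9 collagen receptor genes, 5 passed the filter and 4 of these were lower, against 36.7% of all genes passing it. Their median was −0.11, and −0.32 once the GC trend was removed. The summed FPKM of the list was 461 against 450.4, slightly higher in the library labelled TGFBR3 OE. Itga11, which encodes the α11 integrin chain that binds fibrillar collagen on fibroblasts, had FPKM levels of 16.1 and 31.3 and a log2 ratio of −0.92 (−0.96 to −0.88). Mrc2, an endocytic collagen receptor, stood at 97.3 and 131, with a ratio of −0.42. Itgb1, the β1 integrin chain that many matrix receptors share, was higher, at 292 and 230, with a ratio of 0.34 (0.33 to 0.36), and at 0.06 once the GC trend was removed. The kinase receptor Ddr1 was at −0.11. Tll2 and Gp6, which belong to these lists, were not analysed here, nor were Col9a1 and Col13a1.

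**Figure D5:**
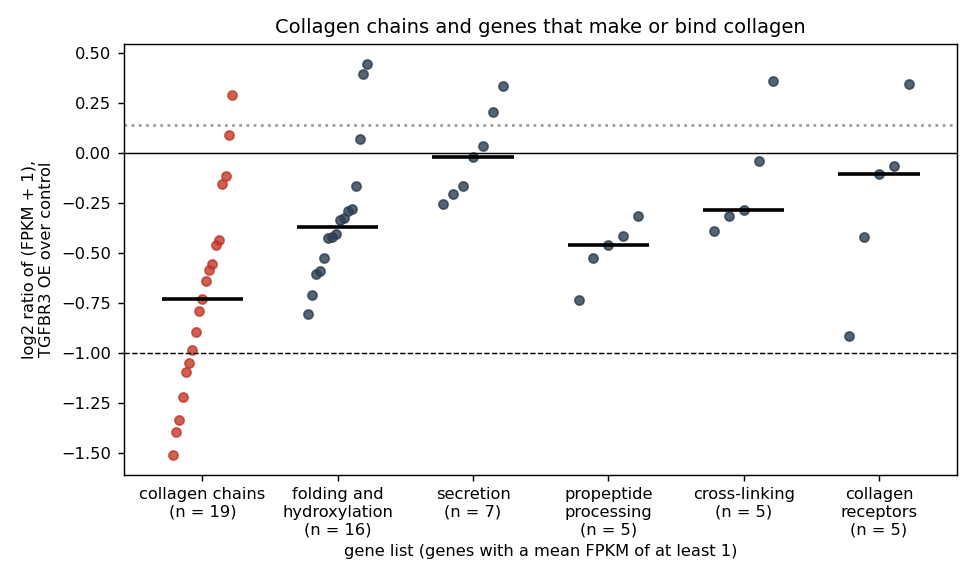
Log2 ratio of (FPKM + 1), TGFBR3 OE over control, of each gene passing the filter in the collagen chains and in 5 lists of genes that process or bind collagen, with a black bar at each median, a dashed line at 2-fold lower and a dotted line at the median of all genes (0.14). The chains have the lowest median, −0.73, and the medians of the other lists lie between −0.46 and −0.02.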

How the data were processed

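RNA of primary FAPs was sequenced as 1 library per condition, with paired reads of 150 nt and poly(A) selection per the labels. The authors deposited for each gene a raw count and an FPKM value, which is the count scaled by gene length and by a library total, rounded to 2 decimals. The reads were mapped to mm10. The paper's methods name STAR and FeatureCounts, whereas the submitters' processing notes name cutadapt 1.9, HISAT2 2.2.1, StringTie 2.1.6, DESeq2 and edgeR, and the annotation release is not given in the sources used here. Which reads entered the library total shifts all FPKM values of a library together.

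Calculations used Python 3.11.15, NumPy 2.4.6, pandas 2.3.3 and SciPy 1.17.1. Libraries were compared by the log2 ratio of (FPKM + 1), with a 2-fold threshold and a filter of a mean FPKM of at least 1. A pseudocount understates the change of low genes. No count model was run, because 1 library per condition gives no estimate of spread. The 95% intervals come from the Clopper-Pearson limits of how a gene's reads divide between the libraries, placed on the scale of the ratio, and from Woolf's formula for ratios between chains. The ratio and its Clopper-Pearson limits were tested on simulated counts. These were drawn with counting error alone, so they do not show how the limits hold with copied reads or spread between cultures. Coordinates, exon lengths and GC content came from GENCODE M21 on mm10, which held 26012 of the 26082 gene identifiers. Promoter stretches came from RefSeq on GRCm38.p6, for 33 of the 42 chains. Every chain with a mean FPKM of at least 1 is named, and other genes of each list by the size of their ratio. The members and lists were chosen with earlier results of these data known. The alternatives are given in the closing section.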

Additional observations from a re-analysis of the deposited data

How the results depend on the processing

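The count of chains at least 2-fold lower, 6 of 19, was between 5 and 9 under other pseudocounts, filters, centring, CPM and the removal of trends over GC content and exon length. It was 12 at a threshold of 1.5-fold and 0 at 4-fold. The count of chains at least 2-fold higher was 0 under every alternative run, none of which dropped the filter and the pseudocount together. Without either, Col20a1 (1.75), Col11a2 (1.28), Col9a3 (1.13) and Col26a1 (1.12) were past 1. Col26a1 had 8 and 5 counts, and its interval ran from −0.67 to 3.08. Col9a2, with 8 and 0 counts, was 3.63-fold higher with the 0 set to the floor of 3 counts. The lower limit of its log2 ratio was 1.22. Without a filter, the median log2 ratios were −0.071 for all chains, −0.59 for fibrillar, −0.064 for network, −0.49 for type VI and 0.00 for the remaining chains, since chains with few reads sit near 0 with the added 1. With the filter at a mean FPKM of 5, the median was −0.76 for all chains and −0.84 for fibrillar chains. Centred on the median gene, the medians were, in the same order, −0.86, −0.92, −0.50, −1.35 and −0.59. From CPM they were −0.75, −0.81, −0.40, −1.31 and −0.50. With the GC trend removed they were −0.71, −0.76, −0.43, −1.18 and −0.64, and with the length trend removed −0.93, −1.06, −0.59, −1.42 and −0.77. The type VI median was −1.29 with a pseudocount of 0.1 and −1.30 without one. Of 149 alternative values of single chains, 146 kept their direction, and the 3 that turned were those of Col4a5, at −0.040 when centred, −0.0085 with the GC trend removed and −0.11 with the length trend removed. Many of the 149 could not turn. A change of filter leaves the value of a single chain as it is, and a pseudocount cannot change its sign. The trends were subtracted as bin medians, which also centres the values. No paired analysis was possible because each group has 1 library. With 1 library per condition, leaving out a replicate was not possible either, and the difference between cultures cannot be told apart from that between conditions. Chains counted in both libraries but under 50 times in the library labelled TGFBR3 OE had intervals wider than 1 log2 unit.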
